A study of Homo sapiens with 8 samples.

Results

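The HOX genes and their TALE-class cofactors were followed in prostate cancer cell lines that were sensitive or resistant to enzalutamide. Members were chosen by symbol, as genes of the HOXA, HOXB, HOXC and HOXD clusters, PBX genes, MEIS1 to MEIS3 and PKNOX1, and 38 of them are described, out of 16126 genes listed in at least 1 of the 3 expression tables. They comprise 10 HOXA, 8 HOXB, 9 HOXC and 4 HOXD genes, 3 PBX genes, and the 3 MEIS genes with PKNOX1. HOXB1, HOXB2, HOXD1, HOXD3, HOXD10, HOXD11 and HOXD12 were not analysed here. There were 29 members in the C4-2B table, 37 in that of CWR-R1 and 36 in that of VCaP, and 28 stood in all 3. Each of the 38 members reached a level of 1 or more in at least 1 library.

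Polyadenylated RNA was sequenced in 8 libraries from 3 established prostate cancer lineages. Enzalutamide is a drug that blocks androgen signalling, and ENZR marks the resistant form of a line. C4-2BENZR and C4-2B, forms of a castration-resistant line that descends from LNCaP, gave 2 libraries each, labelled as biological replicates, and both forms carried luciferase and GFP transgenes. CWR-R1ENZR and CWR-R1, a line from a relapsed prostate xenograft, gave 1 library each, as did VCaPENZR and VCaP, a line from a vertebral metastasis, and no transgene is labelled for these 4 libraries. The way in which resistance was obtained, and whether a resistant line was 1 clone, is stated by no label. The comparison of the resistant with the sensitive form asks how the members differ in each lineage.

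HOX genes encode homeodomain transcription factors that give cells their position along the body axis. They lie in 4 chromosomal clusters, and genes at the 5′ end of a cluster (the high paralog numbers) are used in posterior structures, among them the urogenital tract. PBX, MEIS and PKNOX proteins are homeodomain partners that bind DNA together with HOX proteins and sharpen their choice of sites, and PBX proteins are held in the nucleus by MEIS or PKNOX. HOXB13 marks prostate epithelium and works with steroid receptors in prostate cancer.

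Promoter windows of 4 genes on which the results turn are shown here, from 250 bases before to 50 bases after the start of the RefSeq transcript (GRCh38.p14, strand of the gene). HOXA11 was higher in C4-2BENZR and lower in the library labelled VCaPENZR, HOXA13 and HOXC4 were lower in the library labelled resistant of every lineage, and PRAC1 lies next to HOXB13. Capitals mark matches to a searched motif on either strand. The HOXA11 window lies at chr7:27185183-27185482 on the minus strand, the HOXA13 window at chr7:27200042-27200341 on the minus strand, the HOXC4 window at chr12:54016638-54016937 on the plus strand, and the PRAC1 window at chr17:48722469-48722768 on the minus strand.
HOXA11: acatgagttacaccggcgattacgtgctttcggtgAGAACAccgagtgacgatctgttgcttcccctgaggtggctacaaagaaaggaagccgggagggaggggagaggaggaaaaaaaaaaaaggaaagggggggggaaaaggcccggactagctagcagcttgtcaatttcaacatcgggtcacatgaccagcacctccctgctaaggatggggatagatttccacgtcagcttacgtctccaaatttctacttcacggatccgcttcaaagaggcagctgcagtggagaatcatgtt
HOXA13: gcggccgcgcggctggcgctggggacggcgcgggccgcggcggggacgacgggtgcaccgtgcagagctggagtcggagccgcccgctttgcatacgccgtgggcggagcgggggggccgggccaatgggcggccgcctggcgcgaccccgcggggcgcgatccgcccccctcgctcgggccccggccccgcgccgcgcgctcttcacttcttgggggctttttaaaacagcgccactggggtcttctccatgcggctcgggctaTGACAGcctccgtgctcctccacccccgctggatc
HOXC4: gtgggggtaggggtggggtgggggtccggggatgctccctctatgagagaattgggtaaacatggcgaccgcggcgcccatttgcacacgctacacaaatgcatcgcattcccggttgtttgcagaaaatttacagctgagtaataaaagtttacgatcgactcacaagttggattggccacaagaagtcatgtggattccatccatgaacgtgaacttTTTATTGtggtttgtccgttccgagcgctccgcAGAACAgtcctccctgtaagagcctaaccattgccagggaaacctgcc
PRAC1: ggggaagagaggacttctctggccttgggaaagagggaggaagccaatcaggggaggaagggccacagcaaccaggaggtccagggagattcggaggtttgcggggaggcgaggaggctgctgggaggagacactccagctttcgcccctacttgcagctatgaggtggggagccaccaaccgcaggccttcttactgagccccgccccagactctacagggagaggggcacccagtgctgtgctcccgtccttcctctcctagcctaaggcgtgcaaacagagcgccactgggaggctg
The HOXC4 window is also the first HOXC5 window, since these genes share that start. The windows hold 13 CpG dinucleotides for HOXA11, 44 for HOXA13, 15 for HOXC4 and 9 for PRAC1, against a median of 14 over 34796 windows, and the HOXA13 value lies at the 95.8th percentile. The motifs searched were TGATNNAT, a composite of HOX with PBX found in 7.42% of all windows, TGACAG, a MEIS motif found in 15.8%, CAATAAA, a HOXB13-type motif found in 4.02%, and AGAACA, a steroid receptor motif found in 14.8%. The HOXA11 window holds AGAACA, the HOXA13 window holds TGACAG, the HOXC4 window holds AGAACA and, on the opposite strand, CAATAAA, and the PRAC1 window holds none of the 4. Among the 29 distinct windows of the 21 members with an entry, TGATNNAT was found in 2, TGACAG in 5, CAATAAA in 4 and AGAACA in 4. A match is a run of letters and not a measured site.

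The values, called levels here, are reads per gene over a scaled library size. A single read was worth 0.0473 to 0.0675 in the 8 libraries, which held 14503586 to 20248655 reads in listed genes. Levels are not divided by gene length. The 3 tables were normalized separately, so levels in different lineages are set side by side without a test. In bulk RNA, fewer cells expressing a gene cannot be told apart from less RNA per cell. The replicates of C4-2BENZR correlated at r = 0.985 over the 28 shared members, and those of C4-2B at r = 0.990 (Pearson, on log2 levels plus 1, across genes, which are not independent). KRT8 and KRT18, keratins of luminal epithelium, were read at 232 or more in every library. KLK2 and KLK3, secretory kallikreins of the prostate, were not. KLK2 had 2 reads in CWR-R1ENZR, 70 in CWR-R1 and 16 in the library labelled VCaPENZR, and KLK3 had 0, 29 and 13. Both were at levels of 48 or more in the C4-2B libraries and in VCaP.

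The library labelled VCaPENZR went against its label. VCaP carries a fusion of TMPRSS2 with ERG, and ERG had a level of 0.179 (3 reads) in the library labelled VCaPENZR, against 428 in VCaP. Over the 12868 genes in all 3 tables the Pearson correlation of that library was 0.940 with CWR-R1ENZR, 0.890 with CWR-R1 and 0.728 with VCaP, again across genes. Over the 28 shared members the values were 0.908 with CWR-R1ENZR, 0.817 with CWR-R1 and 0.396 with VCaP. Its level was nearer to CWR-R1ENZR than to VCaP for 24 of the 28 members, where 70.5% of all shared genes were nearer. Set against CWR-R1 in place of CWR-R1ENZR, it was nearer to CWR-R1 than to VCaP for 16 of the 28 members, and for 66.6% of all shared genes. The median distance of a member on the log2 scale was 0.48 to CWR-R1ENZR and 1.30 to VCaP. It is therefore called the library labelled VCaPENZR throughout, and whether its differences from VCaP belong to resistance or to another line cannot be told apart.

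**Figure D1:**
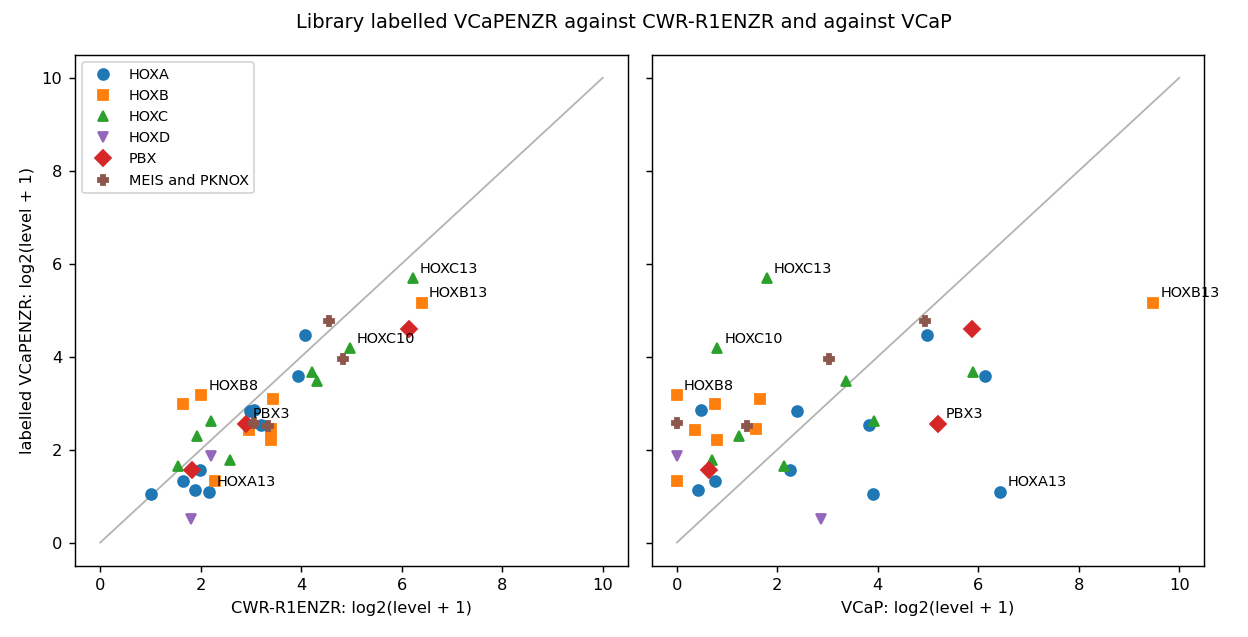
Levels of 35 members, as log2(level + 1), in the library labelled VCaPENZR (vertical axes) against CWR-R1ENZR (left) and against VCaP (right), 1 point per gene, with the line of equal levels. The points lie near the line on the left, while HOXB13, HOXA13 and PBX3 fall far below it and HOXC13, HOXC10 and HOXB8 far above it on the right.

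HOXB13, the prostate marker of the family, was read in every library. Its level was 354 and 367 in C4-2BENZR, against 516 and 517 in C4-2B. It was 83.4 in CWR-R1ENZR against 53.6 in CWR-R1, and 34.8 in the library labelled VCaPENZR against 712 in VCaP. HOXB13 was thus high in the C4-2B libraries and in VCaP, and far lower in both CWR-R1 libraries and in the library labelled VCaPENZR. Per kilobase of exon, it was the most abundant HOX gene in all 4 C4-2B libraries (102 and 106 in C4-2BENZR, 149 in each C4-2B library) and in VCaP (205). In CWR-R1ENZR, CWR-R1 and the library labelled VCaPENZR the first place was held by HOXC13, a gene known for hair and nail formation, at 30.4, 24.1 and 20.8 per kilobase, and HOXB13 had 24.0 per kilobase in CWR-R1ENZR. Of the summed HOX level, which is not per length, HOXB13 made up 66.5% and 65.2% in C4-2BENZR, against 76.2% and 75.4% in C4-2B. The share was 23.4% in CWR-R1ENZR against 10.6% in CWR-R1, and 14.9% in the library labelled VCaPENZR against 68.5% in VCaP.

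**Figure D2:**
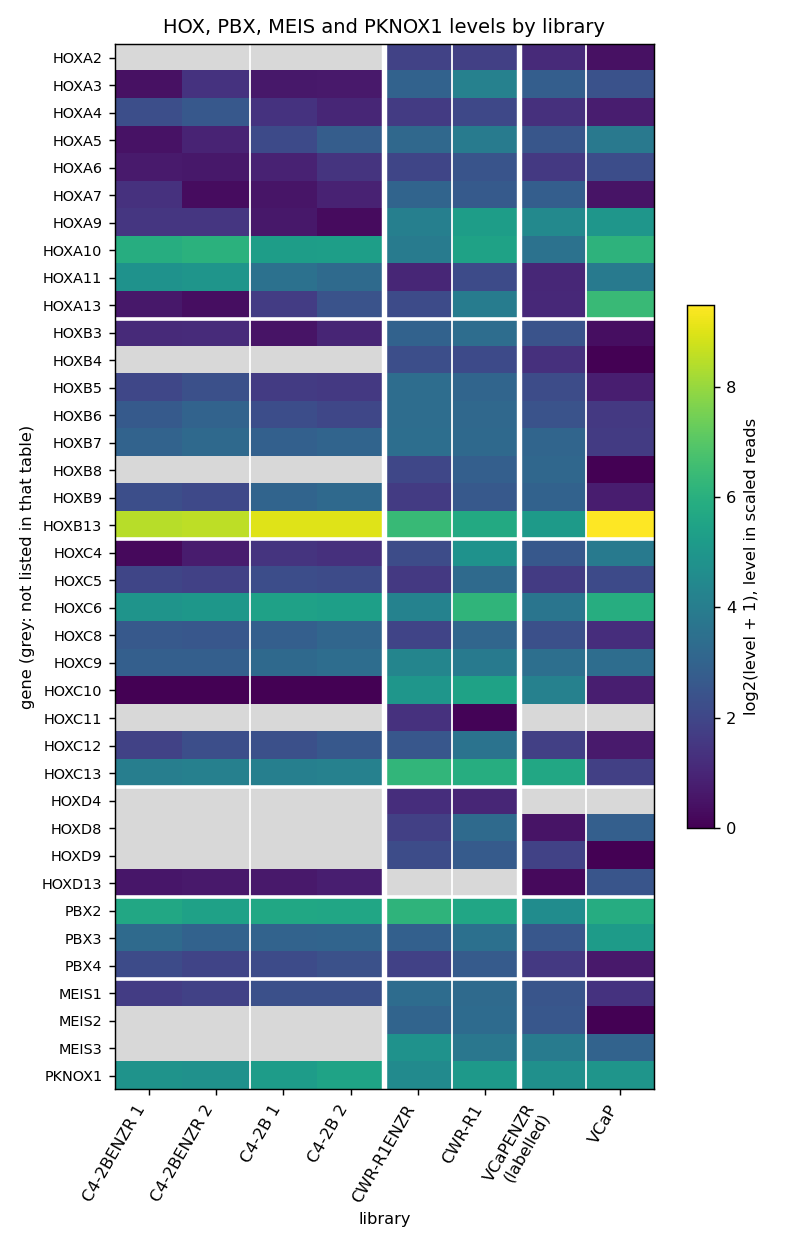
Levels of the 38 members (rows, by cluster and family) in the 8 libraries (columns) as log2(level + 1), with grey cells for a gene not listed in a table. HOXB13 is the brightest row in the C4-2B libraries and in VCaP, and HOXC10 is at 0 in all 4 C4-2B libraries.

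In C4-2B, 24 of the 29 listed members had a level of 1 or more in at least 2 of the 4 libraries and were tested. Of these, 15 differed between C4-2BENZR and C4-2B (limma with Benjamini-Hochberg adjustment over 13280 genes, adjusted p below 0.05), 6 higher and 9 lower in C4-2BENZR. Across all genes tested, 56.8% were called, 27.8% higher and 29.0% lower. A change of at least 2-fold on the log2 scale was called for 5 members, 3 higher and 2 lower, against 9.92% of all genes, 6.16% higher and 3.77% lower. The groups did not overlap for 20 of the 24 tested members, as for 77.4% of all genes tested. The median log2 ratio was -0.24 over the tested members and -0.00075 over all genes. Of the tested members, 5 passed the filter through 1 group only, HOXA9 and HOXB3 through C4-2BENZR and HOXA5, HOXA13 and HOXC4 through C4-2B. The groups of these 5 could not overlap, since both libraries of the other group stayed below the filter level. Leaving out 1 library lowered the number of calls, both among the members and among all genes.

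The HOXA cluster held most of the large changes in C4-2B. All 6 tested genes were called, 4 higher and 2 lower, where 56.8% of all genes tested were called. HOXA9 passed the filter through C4-2BENZR only, and HOXA5 and HOXA13 through C4-2B only, each through the group in which it was high. The filter thus favoured these calls, while HOXA4, HOXA10 and HOXA11 passed through both groups. The summed HOXA level was 95.4 and 104.9 in C4-2BENZR, against 57.8 and 62.3 in C4-2B. HOXA10, a posterior gene of the reproductive tract, was at 58.6 and 64.9 in C4-2BENZR and 37.6 and 38.9 in C4-2B. Its mean was 61.8 ± 4.47 in C4-2BENZR and 38.3 ± 0.937 in C4-2B (SD, n = 2 each), 1.61-fold higher, with a log2 ratio of 0.67 ± 0.08 (SE) and an adjusted p of 2.89e-06 by limma. HOXA11, which patterns the limb and the reproductive tract, was at 27.7 and 29.5 in C4-2BENZR, against 10.6 and 8.64 in C4-2B. Both resistant replicates lay above both sensitive ones, with a log2 ratio of 1.48 ± 0.13 and an adjusted p of 8.12e-08 by limma. HOXA4, a gene of the anterior side of the cluster, was at 3.87 and 5.15 in C4-2BENZR, against 1.60 and 1.04 in C4-2B (log2 ratio 1.25, adjusted p = 0.000143 by limma). Other genes of either strand overlap 45.5% of the exon length of HOXA4, 30.9% of that of HOXA10 and 19.3% of that of HOXA9 in GENCODE, which leaves these counts uncertain.

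The other HOXA genes were scarce in C4-2B. HOXA9, known from blood stem cells and leukaemia, was at 1.80 in each C4-2BENZR library, against 0.516 and 0.207 in C4-2B (log2 ratio 1.05, adjusted p = 0.00137 by limma). It stayed below a level of 1 in the sensitive line and passed the filter through C4-2BENZR only, so that its groups could not overlap. HOXA5, which acts in lung and skeletal development, went the other way, at 0.378 and 0.927 in C4-2BENZR and 3.40 and 5.90 in C4-2B (log2 ratio -1.76, adjusted p = 2.00e-05 by limma). HOXA13, the most posterior gene of the cluster, was at 0.520 and 0.290 in C4-2BENZR (16 reads), against 2.22 and 4.40 in C4-2B (128 reads). Its mean was 8.18-fold lower in C4-2BENZR, with a log2 ratio of -1.57 and an adjusted p of 8.02e-05 by limma. Within 1 cluster, HOXA11 was thus higher and its neighbour HOXA13 lower in C4-2BENZR. HOXA3, HOXA6 and HOXA7 stayed under the filter, with levels between 0.232 and 1.71 in the 4 libraries.

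**Figure D3:**
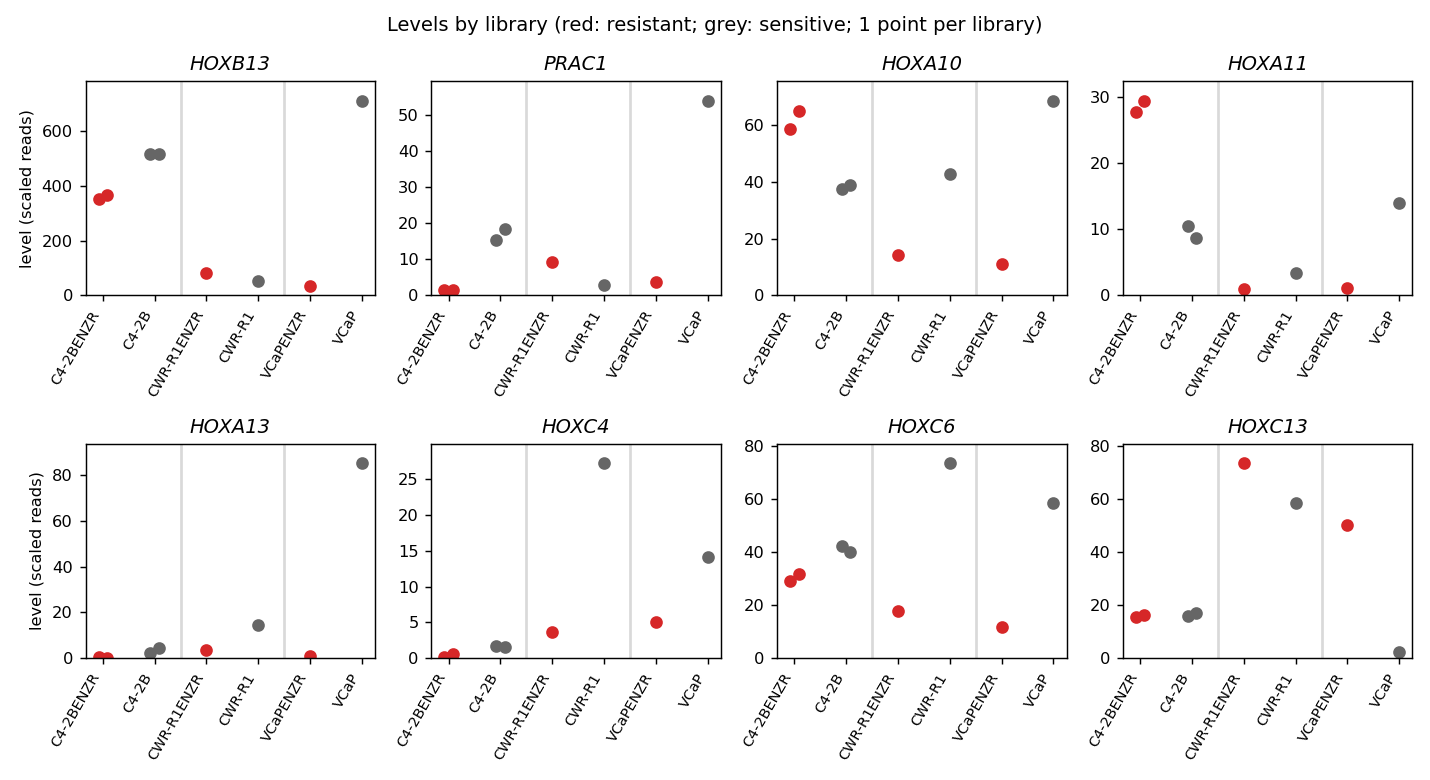
Levels of 7 members and of PRAC1 in each library, with resistant libraries in red and sensitive ones in grey, 1 point per library and linear axes. The VCaPENZR column is the library so labelled. HOXA10 and HOXA11 are higher in C4-2BENZR but lower in CWR-R1ENZR and in the library labelled VCaPENZR, while HOXA13, HOXC4 and HOXC6 are lower in C4-2BENZR, in CWR-R1ENZR and in the library labelled VCaPENZR.

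In the HOXB cluster, 4 of 6 tested genes were called in C4-2B, 2 higher and 2 lower, where 56.8% of all genes were called. None was called by 2-fold on the log2 scale, against 9.92% of all genes. HOXB13 averaged 360.4 ± 9.25 in C4-2BENZR and 517 ± 1.26 in C4-2B (SD, n = 2 each). It was 1.43-fold lower, with a log2 ratio of -0.52 ± 0.05 (SE) and an adjusted p of 1.33e-07 by limma. PRAC1, a small gene beside HOXB13 that is known from prostate and distal colon, was at 1.51 in each C4-2BENZR library, against 15.2 and 18.3 in C4-2B, 11.1-fold lower (adjusted p = 1.26e-09 by limma). PRAC2, on the HOXB9 side of the same gap, averaged 8.76 in C4-2BENZR and 7.31 in C4-2B (adjusted p = 0.281). HOXB9, a posterior trunk gene, was at 3.87 and 3.24 in C4-2BENZR, against 7.38 and 8.44 in C4-2B (log2 ratio -0.97, adjusted p = 0.000250 by limma). Genes further along the cluster did not share that direction. HOXB6 was at 5.48 and 7.12 in C4-2BENZR, against 3.71 and 3.002 in C4-2B (log2 ratio 0.74, adjusted p = 0.00387 by limma, 0.0749 without C4-2BENZR replicate 2). HOXB5 was at 3.07 and 3.996 in C4-2BENZR, against 2.11 and 1.97 in C4-2B (log2 ratio 0.57, adjusted p = 0.0276 by limma). The HOXB5 call was lost without C4-2BENZR replicate 2 (adjusted p = 0.278) and without C4-2B replicate 2 (0.0802), and in edgeR with TMM scaling (0.0503) and DESeq2 (0.114), but not in edgeR with total counts as the only scaling (0.0287). HOXB7, at 7.04 and 8.34 in C4-2BENZR and 6.55 and 7.25 in C4-2B, overlapped between groups (adjusted p = 0.513). HOXB3, at 1.18 and 1.22 in C4-2BENZR and 0.413 and 0.983 in C4-2B, did not pass (adjusted p = 0.188).

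In the HOXC cluster, 3 of 7 tested genes were called in C4-2B, all lower, where 56.8% of all genes were called. HOXC4 passed the filter through C4-2B only. HOXC6, a gene often raised in prostate tumours, was at 29.1 and 31.6 in C4-2BENZR, against 42.4 and 40.1 in C4-2B. It was 1.36-fold lower, with a log2 ratio of -0.43 ± 0.09 (SE) and an adjusted p of 0.000797 by limma. HOXC4 was at 0.189 and 0.637 in C4-2BENZR, against 1.70 and 1.501 in C4-2B (log2 ratio -0.90, adjusted p = 0.00541 by limma, 0.119 without C4-2BENZR replicate 1). HOXC9, a thoracic gene, was at 6.28 and 6.31 in C4-2BENZR, against 8.56 and 9.37 in C4-2B (log2 ratio -0.45, adjusted p = 0.0257 by limma). The HOXC9 call was lost without C4-2BENZR replicate 1 (0.0924), without C4-2BENZR replicate 2 (0.0883) and without C4-2B replicate 2 (0.109), in DESeq2 (0.0947) and in edgeR with total counts as the only scaling (0.0840). HOXC5, HOXC8, HOXC12 and HOXC13 did not pass. HOXC13 was at 15.6 and 16.4 in C4-2BENZR, against 15.8 and 16.9 in C4-2B, and the groups overlapped (adjusted p = 0.844). HOXC8, at 5.29 and 4.98 in C4-2BENZR and 6.29 and 7.82 in C4-2B (adjusted p = 0.0728), passed only without C4-2B replicate 1 (0.0398). HOXC10 had no read in any of the 4 libraries, and the floor of 3 reads corresponds there to levels of 0.142 to 0.174. HOXC4, HOXC5 and HOXC6 share exons on the same strand (21.3%, 43.4% and 14.9% of their exon length in GENCODE overlaps another gene), so that the division of reads among them is uncertain. HOXD13, which shapes the digits, was the only HOXD gene listed for C4-2B and stayed between 0.473 and 0.725.

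Among the cofactors in C4-2B, PKNOX1 and MEIS1 were called lower, while PBX2, PBX3 and PBX4 did not pass. PBX2, a broadly expressed PBX gene, was at 49.95 and 41.6 in C4-2BENZR, against 48.8 and 47.7 in C4-2B, and its groups overlapped (adjusted p = 0.479). PBX3 (8.69 and 6.83 in C4-2BENZR, against 7.07 and 7.35 in C4-2B) and PBX4 (3.497 and 2.90 in C4-2BENZR, against 3.51 and 4.14 in C4-2B) did not pass either (adjusted p = 0.685 and 0.404). PKNOX1, a partner of PBX proteins, was at 28.4 and 26.5 in C4-2BENZR, against 36.8 and 43.7 in C4-2B (log2 ratio -0.53, adjusted p = 0.000319 by limma). MEIS1, which binds DNA with both HOX and PBX proteins, was at 2.22 and 2.55 in C4-2BENZR, against 3.97 and 3.99 in C4-2B (log2 ratio -0.56, adjusted p = 0.0235 by limma). The MEIS1 call was lost in each of the 4 analyses that left out a library (adjusted p = 0.0640 to 0.156), in edgeR with TMM scaling (0.0528) or with total counts (0.0904), and in DESeq2 (0.115). MEIS2 and MEIS3 were not listed in this table.

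**Figure D4:**
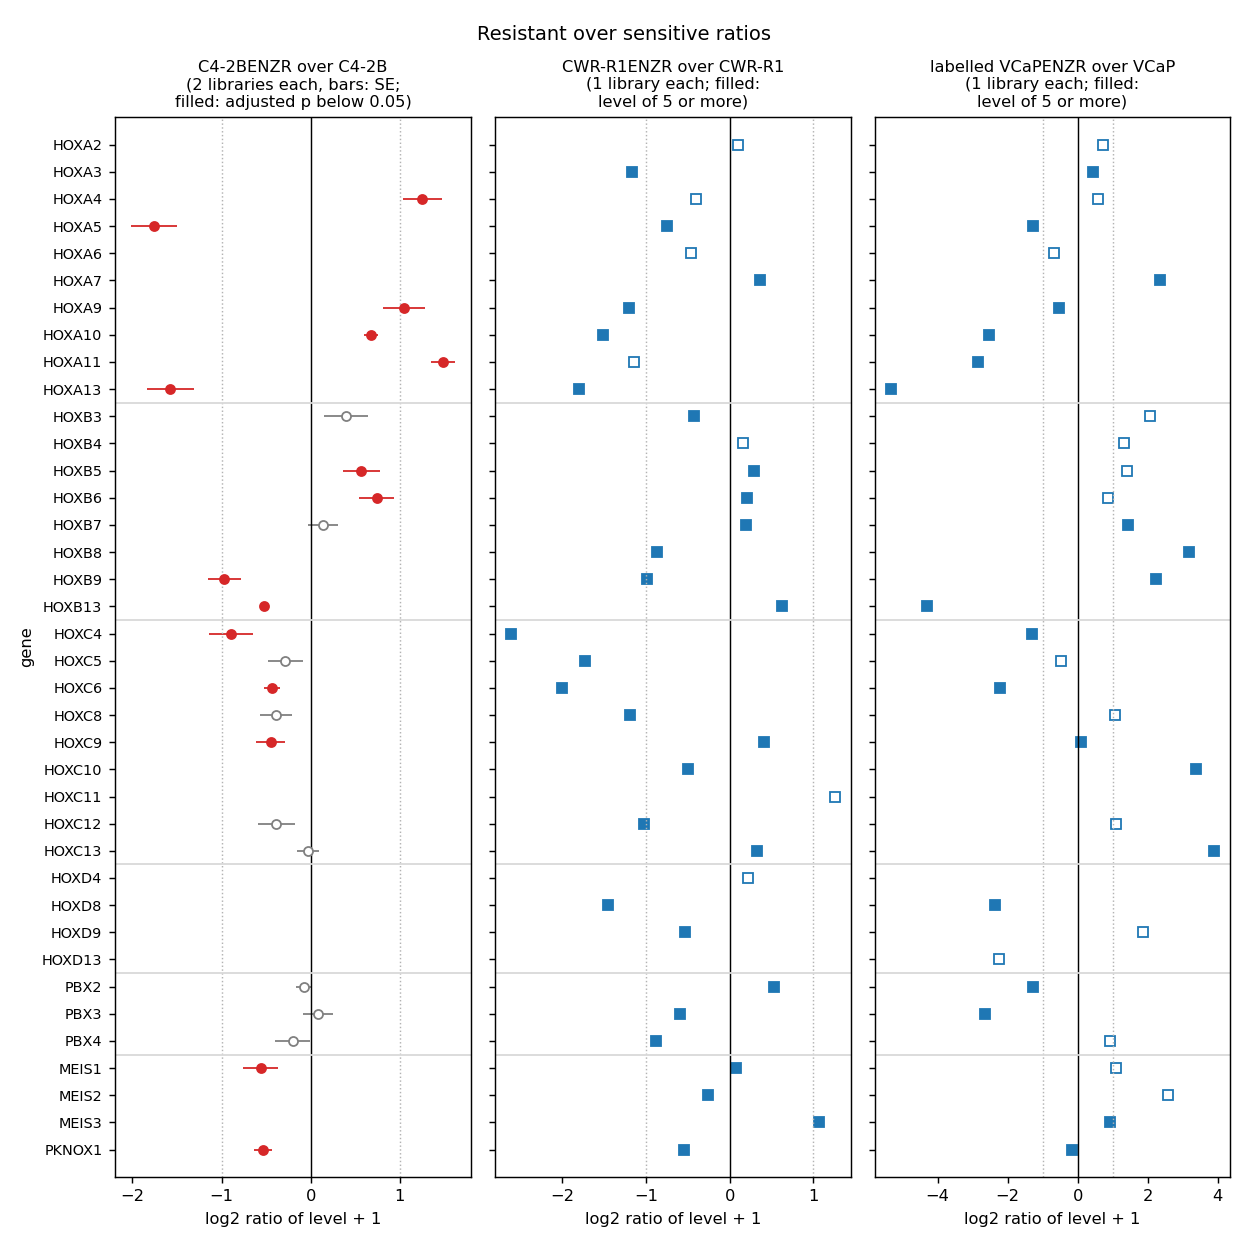
Log2 ratios of level + 1, resistant over sensitive, for each member in C4-2B (left, 2 libraries per group, bars are SE, red filled points have an adjusted p below 0.05), CWR-R1 (middle) and the library labelled VCaPENZR over VCaP (right), the last pair with 1 library per group and filled squares for a level of 5 or more in 1 of both libraries. The panels have different scales, with HOXA5 at -1.76 on the left, HOXC4 at -2.61 in the middle and HOXA13 at -5.34 on the right.

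CWR-R1 gave 1 library per form, so that the differences there have no replicate check and no test. The intervals below are 95% exact binomial (Clopper-Pearson) intervals of the read ratio and cover counting error only. Of 30 members with a level of 5 or more in 1 of both libraries, 11 differed by at least 2-fold on the log2(level + 1) scale, 1 higher and 10 lower in CWR-R1ENZR. Of all 12462 genes taken the same way, 20.1% differed that far, 9.79% higher and 10.3% lower. The median log2 ratio was -0.57 over these members and -0.02 over all genes. The members that were lower lay in the HOXC (5 of 8), HOXA (4 of 6) and HOXD (1 of 2) clusters, and none of the 7 HOXB genes passed 2-fold. Of the 10 lower members, 5 reached a level of 5 in CWR-R1 only (HOXA13, HOXC4, HOXC5, HOXC8 and HOXD8) and so passed the filter through the library in which they were high, while 5 reached it in both libraries (HOXA3, HOXA9, HOXA10, HOXC6 and HOXC12).

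Among members over the filter, HOXC4 had the largest difference, with a level of 3.62 in CWR-R1ENZR against 27.3 in CWR-R1, 7.53-fold lower (5.66 to 10.2). HOXC6 was at 17.6 in CWR-R1ENZR against 73.5 in CWR-R1, 4.17-fold lower (3.64 to 4.79). HOXC5, which shares exons with both, was at 1.94 in CWR-R1ENZR against 8.77 in CWR-R1, 4.51-fold lower (2.999 to 7.003). The anterior side of the HOXC cluster was thus several-fold lower in CWR-R1ENZR. HOXC8 was 2.73-fold lower and HOXC12 2.24-fold lower in CWR-R1ENZR. Other genes of the cluster did not share this size, with HOXC10 at 30.3 in CWR-R1ENZR against 43.4 in CWR-R1, HOXC9 at 18.8 against 13.9, and HOXC13 at 73.7 against 58.5. HOXC11 had 23 reads in CWR-R1ENZR and 1 in CWR-R1, a ratio of 22.8 with an interval of 3.71 to 941. The summed HOXC level was 155 in CWR-R1ENZR and 244 in CWR-R1.

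In the HOXA cluster the posterior genes were lower in CWR-R1ENZR. HOXA13 was at 3.48 in CWR-R1ENZR against 14.6 in CWR-R1, 4.20-fold lower (3.09 to 5.80). HOXA10 was at 14.3 in CWR-R1ENZR against 42.8 in CWR-R1, 2.99-fold lower (2.55 to 3.504), and HOXA9 at 16.0 against 38.0, 2.38-fold lower (2.04 to 2.78). HOXA11 was scarce, at 1.01 in CWR-R1ENZR (15 reads) against 3.44 in CWR-R1 (51 reads), 3.42-fold lower (1.89 to 6.55), under the filter. HOXA3, a gene of the pharyngeal arches, was at 6.90 in CWR-R1ENZR against 16.7 in CWR-R1, 2.42-fold lower (1.92 to 3.08). HOXA7, a gene of the middle of the cluster, was at 7.30 in CWR-R1ENZR against 5.46 in CWR-R1. HOXA5 was at 8.24 in CWR-R1ENZR against 14.6 in CWR-R1, 1.77-fold lower (1.41 to 2.22). HOXA2, HOXA4 and HOXA6 had levels of 2.14 to 4.45 in both libraries. The summed HOXA level was 65.01 in CWR-R1ENZR and 146 in CWR-R1.

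In the HOXB cluster of CWR-R1, HOXB13 was 1.55-fold higher in CWR-R1ENZR (1.42 to 1.70). PRAC1 beside it was at 9.18 in CWR-R1ENZR against 2.77 in CWR-R1, 3.32-fold higher (2.33 to 4.83), and TTLL6, on the other side of HOXB13, at 3.69 against 10.8, 2.93-fold lower. Both neighbours reached a level of 5 only in the library in which they were high. HOXB9 was at 2.14 in CWR-R1ENZR against 5.26 in CWR-R1, 2.45-fold lower in reads (1.61 to 3.83) but with a log2 ratio of level + 1 of -0.99. HOXB8 was likewise 2.10-fold lower in reads (1.46 to 3.07). HOXB3 to HOXB7, the anterior and central genes, were at 3.89 to 9.85 in CWR-R1ENZR and 3.37 to 9.51 in CWR-R1. In the HOXD cluster, HOXD8 was at 2.48 in CWR-R1ENZR against 8.57 in CWR-R1, 3.46-fold lower (2.38 to 5.13), HOXD9 at 3.62 against 5.67, and HOXD4 at 1.34 against 1.01. Of the exon length of HOXD4, 80.5% overlaps another gene on its strand, which leaves its count uncertain.

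MEIS3 was the only member at least 2-fold higher among those over the filter in CWR-R1, at 27.6 in CWR-R1ENZR against 12.7 in CWR-R1, 2.18-fold (1.83 to 2.60). MEIS1 (9.11 in CWR-R1ENZR against 8.57 in CWR-R1) and MEIS2 (7.30 against 8.91) had intervals of the ratio that include 1. PBX2 was at 70.2 in CWR-R1ENZR against 48.3 in CWR-R1, 1.45-fold higher. PBX3 was at 6.43 in CWR-R1ENZR against 10.3 in CWR-R1, PBX4 at 2.55 against 5.53, and PKNOX1 at 22.5 against 33.3. PBX2 was thus higher and PBX3, PBX4 and PKNOX1 lower in CWR-R1ENZR, all under 2-fold on the log2(level + 1) scale.

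Between the library labelled VCaPENZR and VCaP, 16 of 21 members over the same filter differed by at least 2-fold, 6 higher and 10 lower. Of all 12502 genes, 43.1% did, 21.1% higher and 22.0% lower. The median log2 ratio was -0.53 over these members and 0.0048 over all genes. All 6 higher members reached a level of 5 only in the library labelled VCaPENZR, and 5 of the 10 lower ones only in VCaP, so that 11 of the 16 passed the filter through the library in which they were high. The 5 that reached it in both libraries were HOXA10, HOXB13, HOXC4, HOXC6 and PBX2, all lower. All of these differences rest on the library that goes against its label, and no replicate exists. HOXB13 was at 34.8 in the library labelled VCaPENZR against 712 in VCaP, 20.5-fold lower (18.9 to 22.3). HOXA13 was at 1.13 in the library labelled VCaPENZR (19 reads) against 85.3 in VCaP (1499 reads), 75.4-fold lower (48.1 to 126). Both are the most posterior listed genes of their clusters. The same was seen for HOXD13, at 0.179 in the library labelled VCaPENZR (3 reads) against 4.61 in VCaP (81 reads), 25.8-fold lower with an interval of 8.53 to 128.

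HOXC13 ran opposite to these posterior genes. It was at 50.4 in the library labelled VCaPENZR against 2.45 in VCaP, 20.6-fold higher (15.2 to 28.7). HOXC10, another posterior gene of that cluster, was at 17.1 in the library labelled VCaPENZR against 0.740 in VCaP, 23.1-fold higher (13.3 to 43.9), while HOXC6 was at 11.7 against 58.4 and HOXC4 at 5.12 against 14.1, 4.97-fold and 2.76-fold lower. VCaP thus resembled C4-2B in its low HOXC10, and the library labelled VCaPENZR resembled both CWR-R1 libraries, where HOXC10 was at 30.3 (CWR-R1ENZR) and 43.4 (CWR-R1). In the HOXA cluster, HOXA10 was 6.24-fold lower (11.01 in the library labelled VCaPENZR, 68.7 in VCaP), HOXA11 13.0-fold lower (1.07 and 13.9) and HOXA5 2.75-fold lower (4.76 and 13.1). HOXA7 (6.19 in the library labelled VCaPENZR and 0.398 in VCaP) was 15.5-fold higher, and an antisense RNA overlaps 74.7% of its exon length. HOXA9, at 21.0 in the library labelled VCaPENZR and 30.7 in VCaP, and HOXA3, at 6.07 and 4.21, stayed within 2-fold, as did HOXC9 at 10.1 and 9.34.

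Apart from HOXB13, the HOXB genes were scarce in VCaP. Their sum without HOXB13 was 36.3 in the library labelled VCaPENZR and 5.86 in VCaP. HOXB8 was at 8.04 in the library labelled VCaPENZR against 0 reads in VCaP, at least 47.1-fold higher where VCaP is set to the floor of 3 reads. HOXB9 was 10.02-fold higher (6.85 in the library labelled VCaPENZR, 0.683 in VCaP) and HOXB7 3.495-fold higher (7.56 and 2.16). HOXD8 was 15.0-fold lower (0.417 in the library labelled VCaPENZR, 6.26 in VCaP), while HOXD9, under the filter, was at 2.62 in the library labelled VCaPENZR against 0 reads in VCaP. PBX2 and PBX3 were lower. PBX3 was at 4.88 in the library labelled VCaPENZR against 35.9 in VCaP, 7.35-fold lower (5.83 to 9.36), and PBX2 at 23.2 against 57.5, 2.48-fold lower. MEIS3 was at 14.5 in the library labelled VCaPENZR against 7.17 in VCaP and PKNOX1 at 26.3 against 29.8, both within 2-fold on the log2(level + 1) scale. MEIS2 was at 4.94 in the library labelled VCaPENZR against 0 reads in VCaP, under the filter. MEIS1, PBX4 and the remaining HOX genes under the filter were at levels below 5 in both libraries.

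Side by side, C4-2B and CWR-R1 share no library, and 22 members could be read in both. Of these, 13 were called in C4-2B, 8 differed by at least 2-fold in CWR-R1, and 5 did both. HOXA13, HOXC4 and HOXC6 were lower in both resistant forms. HOXA9 and HOXA10 were higher in C4-2BENZR and lower in CWR-R1ENZR. Among all 11667 genes read in both, 6762 were called in C4-2B, 2044 differed by at least 2-fold in CWR-R1, and 1299 did both. Of these 1299, 765 had the same direction and 534 the opposite. With the library labelled VCaPENZR, 15 members could be read in both comparisons and 8 passed both thresholds, 5 in the same direction (HOXA5, HOXA13, HOXB13, HOXC4 and HOXC6, all lower) and 3 in the opposite one (HOXA10, HOXA11 and HOXB9). Of these 15 members, 11 were called in C4-2B and 12 differed by at least 2-fold in VCaP. Among all 11601 genes read in both comparisons, the numbers were 6787 and 4594, and 2815 passed both thresholds. Of these 2815, 1442 had the same direction and 1373 the opposite. HOXA13, HOXC4 and HOXC6 thus stood lower in C4-2BENZR and in CWR-R1ENZR, and also in the library labelled VCaPENZR, whose label is in doubt. In C4-2B and CWR-R1, HOXA13 and HOXC4 passed the filter only through the sensitive form, so that a lower value was favoured there. The same holds for HOXA13 in VCaP, and for HOXA5 in C4-2B and VCaP. HOXC6 passed through both forms in every comparison. HOXC4 and HOXC6 share exons, so that they are not separate cases.

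Transcripts within or beside the clusters were read next to their neighbours. In C4-2B, 3 of 8 tested were called higher and 2 lower, which is 62.5%, near the 56.8% of all genes. In CWR-R1, 1 of 7 was at least 2-fold higher and 1 lower, against 20.1% of all genes in either direction. These were PRAC1 and TTLL6, each at a level of 5 or more only in the library in which it was high. Between the library labelled VCaPENZR and VCaP, 2 of 10 were higher and 7 lower, against 43.1% of all genes. HOTTIP, HOXA11-AS, EVX1, PRAC1 and TTLL6 reached a level of 5 in VCaP only, and HOTAIRM1 only in the library labelled VCaPENZR. The filter thus favoured these differences, while SKAP2, HOXA10-AS and PRAC2 reached that level in both libraries. SKAP2, an adaptor gene beside the anterior end of the HOXA cluster, was at 71.9 and 69.6 in C4-2BENZR, against 28.4 and 31.5 in C4-2B, 2.36-fold higher (adjusted p = 3.56e-09 by limma), and at 61.1 in the library labelled VCaPENZR against 20.6 in VCaP, 2.96-fold higher. In CWR-R1 it ran the other way, at 63.0 in CWR-R1ENZR against 85.8 in CWR-R1, 1.36-fold lower (1.25 to 1.48). HOXA11-AS, the antisense RNA of HOXA11, was at 9.78 and 7.59 in C4-2BENZR, against 2.63 and 4.66 in C4-2B, 2.38-fold higher (adjusted p = 0.000406 by limma). It was at 0.298 in the library labelled VCaPENZR against 37.5 in VCaP, 126-fold lower (53.7 to 389). HOXA11-AS thus differed in the direction of HOXA11 in both comparisons. Against VCaP, HOXA11 and HOXA11-AS passed the filter through VCaP only, so that a lower value was favoured for both. Since 23.8% of the exon length of HOXA11 overlaps it on the opposite strand and the counting strand is not stated, reads of the pair cannot be told apart there. HOTAIRM1, an antisense RNA of the anterior HOXA cluster, was at 4.30 and 4.34 in C4-2BENZR, against 1.34 and 2.12 in C4-2B (adjusted p = 0.000941 by limma). Its level was 6.84 in CWR-R1ENZR against 6.61 in CWR-R1, a ratio of 1.03 (0.776 to 1.38). In the library labelled VCaPENZR it was 9.11, against 1.08 in VCaP, 8.42-fold higher (5.21 to 14.4).

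At the posterior end of the HOXA cluster, HOTTIP, a long noncoding RNA known to support expression of the posterior HOXA genes, was listed in the VCaP table alone. It had no read in the library labelled VCaPENZR against a level of 50.4 in VCaP, at least 282-fold lower where that library is set to the floor of 3 reads. Its start lies 330 bases from that of HOXA13 on the other strand, and the HOXA13 window printed above overlaps the HOTTIP window by 171 bases. EVX1, the next gene, had 1 read in the library labelled VCaPENZR and 230 in VCaP, 220-fold lower with an interval of 39.1 to 8723. HOXA13, HOTTIP and EVX1 were thus read together in VCaP and nearly absent from the library labelled VCaPENZR. All of them reached a level of 5 in VCaP only, and so passed the filter through the library in which they were high. In the other lineages EVX1 was under the filter and ran opposite to HOXA13. It had 43 reads in CWR-R1ENZR and 9 in CWR-R1, 4.75-fold higher (2.28 to 11.1). Its mean was 0.952 in C4-2BENZR and 0.517 in C4-2B, not tested. PRAC1 was at 3.69 in the library labelled VCaPENZR against 53.9 in VCaP, 14.6-fold lower, in the direction of HOXB13, as in C4-2B and CWR-R1. In this comparison and in CWR-R1, PRAC1 reached a level of 5 only in the library in which it was high.

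Other TALE-class homeobox genes, relatives of the cofactors, changed in both directions in C4-2B. Of 8 tested, 3 were higher and 3 lower in C4-2BENZR, which is 75.0%, where 56.8% of all genes were called. IRX2, an Iroquois gene, was at 0.473 and 0.579 in C4-2BENZR, against 12.4 and 11.7 in C4-2B, 22.9-fold lower (adjusted p = 1.08e-09 by limma). MKX, known from tendon, was 11.6-fold lower (0.992 and 0.579 in C4-2BENZR, 9.64 and 8.54 in C4-2B, adjusted p = 3.12e-08 by limma). IRX2 and MKX stayed below a level of 1 in C4-2BENZR and passed the filter through C4-2B only, so that a lower value was favoured. IRX5, at 14.6 and 16.3 in C4-2BENZR and 6.14 and 4.40 in C4-2B, was 2.94-fold higher (adjusted p = 2.69e-06 by limma), and IRX3, its neighbour in the genome, 1.89-fold higher. In CWR-R1, 1 of 4 passed 2-fold, against 20.1% of all genes. It was TGIF1, a repressor in TGF-beta signalling, at 59.0 in CWR-R1ENZR against 19.7 in CWR-R1, 2.99-fold higher (2.62 to 3.43). Between the library labelled VCaPENZR and VCaP, 1 of 6 was higher and 2 were lower, against 43.1% of all genes in either direction. IRX4 was at 0.595 in the library labelled VCaPENZR against 35.8 in VCaP, and passed the filter through VCaP only.

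Chromatin and CDX regulators of HOX genes also changed in both directions in C4-2B. Of 20 tested, 6 were higher and 8 lower in C4-2BENZR, which is 70.0%, where 56.8% of all genes were called. None was called by 2-fold, against 9.92% of all genes. BMI1, a Polycomb protein that represses HOX genes, averaged 52.9 in C4-2BENZR and 86.0 in C4-2B (log2 ratio -0.69, adjusted p = 6.84e-07 by limma). KDM6B, which removes the Polycomb histone mark, averaged 219.9 in C4-2BENZR and 149.7 in C4-2B (log2 ratio 0.56, adjusted p = 3.39e-06 by limma). In CWR-R1, PCGF2 and CBX2 were at least 2-fold higher and RNF2 lower among 20, all Polycomb genes. This is 15.0%, where 20.1% of all genes differed that far. PCGF2 was at 92.6 in CWR-R1ENZR against 34.7 in CWR-R1, CBX2 at 151 against 74.9, and RNF2 at 14.6 against 35.0. Between the library labelled VCaPENZR and VCaP, 7 of 21 were higher and 6 lower, where 43.1% of all genes differed by at least 2-fold. CDX2, an intestinal activator of HOX genes, was at 0 reads in the library labelled VCaPENZR against a level of 24.8 in VCaP. It passed the filter through VCaP only. Whether these regulators bear on the HOX levels was not tested.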

How the data were processed

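Polyadenylated RNA of 8 libraries was sequenced as paired ends of 150 bases, per the labels. Each lineage has 1 table, in which the authors deposited a signal value for every gene and library. The submitters' processing notes name hg19 as the build. Which aligner, counting program and counting strand were used is not given in the sources used here. Within a tolerance of 0.02 reads, 100% of the deposited signal values corresponded to whole reads, and reads per gene were recovered. A library had 14503586 to 20248655 of them, with 3.62% to 5.21% in its 10 top genes. The C4-2B table lists 17 genes with no read in its 4 libraries, HOXC10 among them. Fold and p-value columns of the authors were left aside.

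For C4-2B, limma 3.58.1 (trend, R 4.3.3) was fitted to log2(level + 1) of 13280 genes with a level of at least 1 in at least 2 libraries, in a two-sided comparison of 2 with 2. P-values were adjusted after Benjamini and Hochberg over all genes, and 0.05 was the threshold. Fold changes on this scale understate the change of low genes, and fold values given beside it are ratios of mean levels. The p-values measure the spread between these samples, which are labelled biological replicates with no further detail. For CWR-R1 and VCaP, log2 ratios of level + 1 were taken among genes with a level of at least 5 in 1 library, and 2-fold differences were counted without a test. Intervals (95%) are exact binomial, and a floor of 3 reads in the library was used against 0 reads. Both describe counting error alone, as reads lack molecular identifiers and are not independent molecules.

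Alternatives were edgeR 4.0.16 (quasi-likelihood, on recovered reads, with TMM or total counts), DESeq2 1.42.0, median-of-ratios scaling, other filters, pseudocounts of 0.5 and 2, other thresholds, a replicate block and each C4-2B library left out. On recovered reads edgeR called 7522 genes. Lengths per kilobase are exon unions from GENCODE (GRCh38), used for lengths and overlaps only. Promoters are from RefSeq (GRCh38.p14). Of the members chosen by symbol, 2 are not reported here and are left out of all counts and sums of members. The members, the 3 lists of neighbours, TALE-class genes and regulators, and the rule for naming (every member, and up to 4 of each list with the largest change at a level of 5 or more) were chosen with earlier results of these data known. HOTAIRM1, PRAC2, and SKAP2 in CWR-R1 and VCaP were named outside that rule after their values were seen.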

Additional observations from a re-analysis of the deposited data

Results flagged for a closer look

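Some members had a called change in C4-2B and a change of at least 2-fold in the opposite direction in another lineage, with groups that do not overlap. For HOXA9 the filter fixed this, since it passed in C4-2B through C4-2BENZR only. HOXA11 and HOXB9 passed the filter between the library labelled VCaPENZR and VCaP only through the library in which they were high. Each difference between lineages was not tested, since the other lineages have 1 library per form and the tables were normalized separately. HOXA10 had a log2 ratio of 0.67 in C4-2BENZR over C4-2B, against -1.51 in CWR-R1ENZR over CWR-R1 and -2.54 in the library labelled VCaPENZR over VCaP. For HOXA9 the values were 1.05 in C4-2B and -1.2 in CWR-R1. Between the library labelled VCaPENZR and VCaP the opposite values were -2.85 for HOXA11 (1.48 in C4-2B) and 2.22 for HOXB9 (-0.97 in C4-2B). These values, and the second HOXA10 value, rest on the library that goes against its label.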

How the results depend on the processing

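The number of C4-2B calls was 7547 (15 members) and stayed within 1.5 times of it for all genes in edgeR with TMM (7522, 13 members), DESeq2 (6378, 12 members) and the other scalings, filters and pseudocounts. Leaving out 1 library gave 5962 to 6804 genes and 9 to 12 members. A call with at least 2-fold change was made for 1318 genes and 5 members. Total counts as the only scaling moved the median gene by 0.10 and gave 4746 higher and 2921 lower of 7667 (3691 and 3856 in limma), and 6 members higher and 7 lower. In CWR-R1, a 1.5-fold threshold counted 4963 of 12462 genes and 17 of 30 members. A 3-fold threshold counted 1141 of these genes and 4 of these members, and in VCaP it counted 3252 of 12502 genes. There, taking genes with a level of at least 1 counted 25 members. The replicate numbers of the labels share only a number (correlation of deviations 0.05), and a replicate block gave 8248 genes and the same count of 15 members.

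Of the 15 called members, 10 were called in every alternative that tested them. The other 5 were HOXB5, HOXB6, HOXC4, HOXC9 and MEIS1. The sign turned only for members that were not called. With total counts, HOXC13 was at 0.066 and PBX2 at 0.032. With 1 library left out, the log2 ratio ranged over -0.078 to 0.013 for HOXC13, -0.21 to 0.050 for PBX2 and -0.067 to 0.24 for PBX3. The cause was not tested. Leaving out a library removed some members through the filter. Differences in CWR-R1 and VCaP have no replicate, and the added thresholds for members were chosen after seeing the data.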
